A study of Mus musculus with 42 samples.

Results

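Samples of mouse small intestine labelled crypt were compared with cells of the same organ sorted for bright Lgr5 reporter fluorescence. The comparison was chosen by sample titles and holds 4 of the 42 arrays in the study, 2 labelled crypt and 2 labelled Lgr5Hi. The study profiled stomach outlet (pylorus), small intestine and colon epithelium on Affymetrix mouse arrays, with 25 arrays from the Lgr5-EGFP-IRES-CreERT2 mice used here. In that line a green fluorescent protein and an inducible Cre recombinase are made from the Lgr5 locus, and the reporter is known to be silent in a share of crypts. All groups came from untreated adult animals at least 7 to 8 weeks old, not selected for sex, and every animal of the compared groups carried this reporter. Next to the compared groups, the small intestine gave 2 arrays of dimly fluorescent cells (Lgr5Lo) and 1 array of whole tissue. The titles and descriptions call the first group crypts, while its population field reads Whole, the same entry as for whole tissue. The protocol text describes gland release by chelation, digestion to single cells and sorting for pylorus; the isolation of small intestinal crypts is not given in the sources used here. RNA was amplified from 2 ng or more. The samples labelled crypt carry no gate name, so sorting and cell population differ together between the groups and cannot be told apart.

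In the small intestine, Lgr5-expressing stem cells lie at the crypt base between Paneth cells and divide to give transit-amplifying progenitors. Their daughters move up the crypt and onto the villus, where they become absorptive enterocytes, mucus-secreting goblet cells, hormone-secreting enteroendocrine cells or chemosensory tuft cells. Wnt signals are strongest at the crypt base, and BMP signals and nutrient-handling genes increase along the villus. Lymphocytes lie between the epithelial cells, mostly on the villus.

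The markers went against the crypt label. The array values are log2 intensities, on which a difference of 1 is a 2-fold change. Lgr5 stood at 4.81 and 5.04 on the arrays labelled crypt, at 8.32 and 8.37 in Lgr5Hi, at 5.52 and 6.20 in Lgr5Lo and at 7.09 in whole small intestine. The crypt-labelled arrays were thus the lowest of the 7, below dim cells and below the array labelled whole, which itself lay above dim cells. Olfm4, a second stem cell marker, stood at 9.28 and 8.68 there, at 11.24 and 11.42 in Lgr5Hi, at 9.56 and 10.51 in Lgr5Lo and at 10.95 in whole tissue. Alpi, the intestinal alkaline phosphatase of the enterocyte brush border, stood at 11.95 and 11.97 on the crypt-labelled arrays, 5.70 and 8.91 in Lgr5Hi, 10.12 and 10.76 in Lgr5Lo and 10.50 in whole tissue. Sis, sucrase-isomaltase, was likewise highest on the crypt-labelled arrays, at 11.73 and 11.62, against 4.60 and 8.84 in Lgr5Hi, 9.22 and 10.31 in Lgr5Lo and 9.56 in whole tissue. These arrays are therefore called "labelled crypt" throughout, and no other name is given to the cells they hold.

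**Figure D1:**
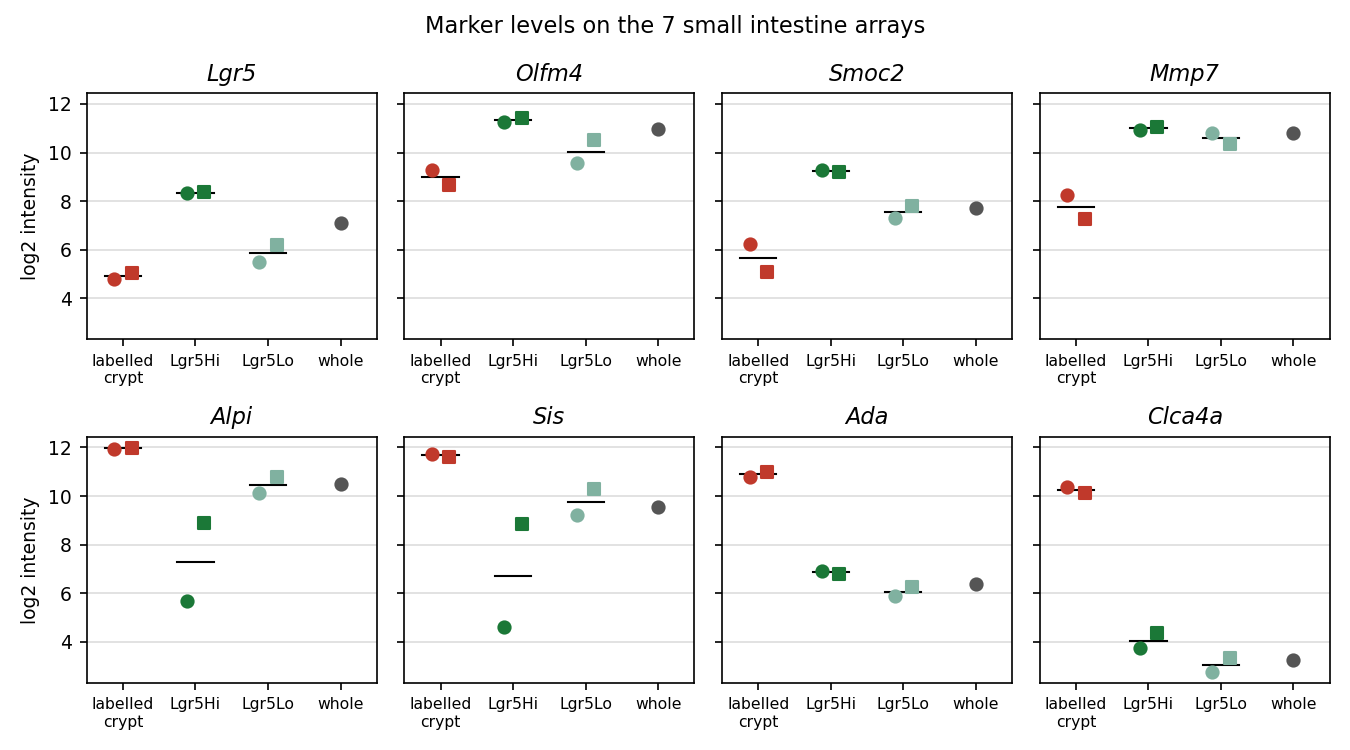
Log2 intensity of 4 crypt genes (Lgr5, Olfm4, Smoc2, Mmp7) and 4 villus genes (Alpi, Sis, Ada, Clca4a) on the 7 small intestine arrays; circles are replicate 1, squares replicate 2 and lines group means. The arrays labelled crypt are lowest for the upper row, with Lgr5 at 4.81 and 5.04, and highest for the lower row, with Alpi at 11.95 and 11.97.

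In several gene lists the same position was seen relative to the 1 array of whole small intestine. Both crypt-labelled arrays lay below it for 23 of 24 crypt base stem cell genes, 20 of 23 Paneth cell genes and 23 of 23 mitosis genes, against 43.8% of all 22180 genes. They lay above it for 19 of 20 brush border hydrolases, 23 of 23 lipid absorption genes and 26 of 26 drug metabolism genes, against 36.0% of all genes. Other lists were mixed, such as goblet cell genes with 6 above and 14 below of 22. Transcription factors of absorptive cells had 10 above and 6 below of 20. The 2 crypt-labelled arrays correlated with each other at 0.983 over all genes and with whole small intestine at 0.938 and 0.927. The array labelled whole correlated more closely with the sorted arrays, at 0.954 and 0.97 with Lgr5Hi and 0.96 and 0.973 with Lgr5Lo. Its name is taken from the label, and what it holds was not tested. The 2 Lgr5Hi arrays correlated at 0.976 with each other. Those values are descriptions over genes, which are not independent.

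Sex-linked transcripts also differed between the groups. Xist, the RNA that silences an X chromosome in females, stood at 3.60 and 2.89 on the crypt-labelled arrays and at 10.76 and 9.97 in Lgr5Hi, and at 8.34 to 10.15 on the other 3 small intestine arrays. The Y-linked gene Uty stood at 6.34 and 6.11 against 2.98 and 3.05, and Eif2s3y at 7.23 and 7.56 against 3.65 and 3.39. Uty and Eif2s3y rose, by 3.21 ± 0.94 (adjusted p = 0.0231) and 3.88 ± 1.25 (adjusted p = 0.0409), while Xist differed by -7.12 ± 2.38 with an adjusted p of 0.0506. These genes were looked up after values were seen. The sex of the animals and the population cannot be told apart in this comparison.

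The 25 arrays of the line were fitted together in limma, with a mean for each group, and a gene was called at a Benjamini-Hochberg adjusted p under 0.05. Differences are labelled crypt minus Lgr5Hi, in log2 units with their standard error. Of 22180 genes, 1435 were higher on the crypt-labelled arrays (6.47%) and 1546 lower (6.97%); 2652 of these 2981 genes differed at least 2-fold. The median difference over all genes was 0.00. Without crypt replicate 2 the count fell to 1295 genes (769 higher, 526 lower), and without Lgr5Hi replicate 1 to 1326. What the p-values rest on is the spread among samples described as biological replicates, pooled over the 10 groups of the line. Precision is limited by 2 arrays per group. Where the compared arrays vary more than the other groups, the printed SE and p can be smaller than their own spread would give. The pooled spread includes whole colon replicate 1, on which the 12 stomach genes averaged 11.48 against 4.20 on whole colon replicate 2. Without that array 3203 genes were called for the main comparison. Of 85 genes picked by the naming rule given below and not called in the main fit, 12 then passed. The medians of the 7 small intestine arrays lay between 3.86 and 3.98 and no detection calls were given, so where a group lies at or under such levels the true difference may be larger than the value printed. In bulk samples, fewer cells of a type and less RNA per cell cannot be told apart.

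**Figure D2:**
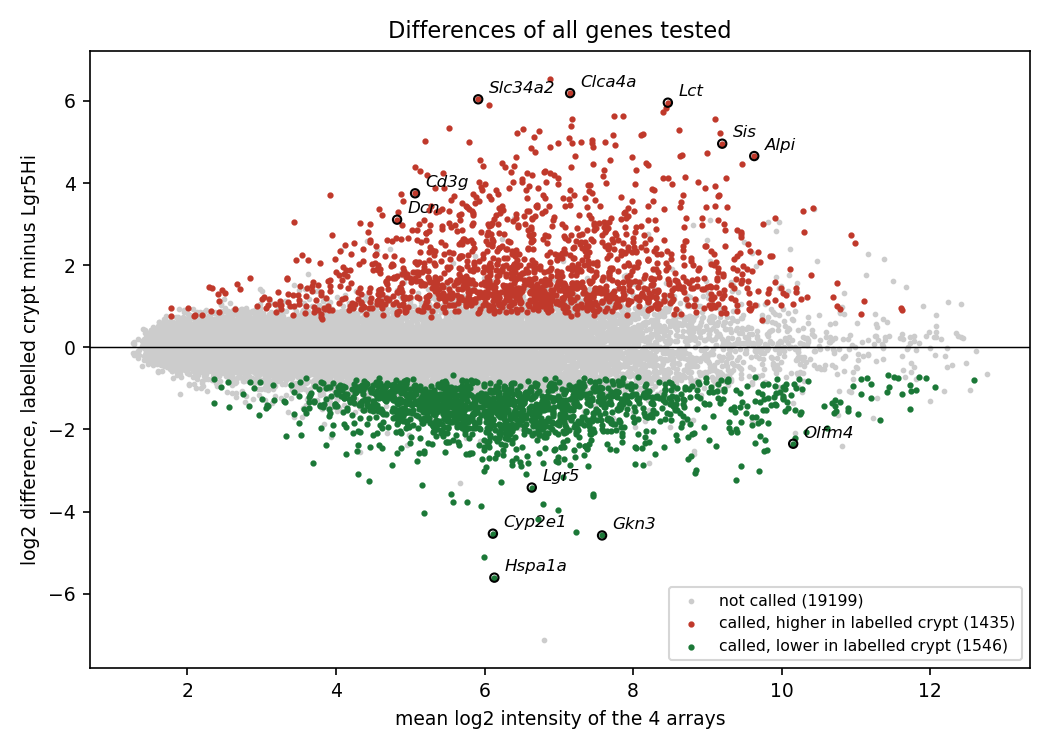
Log2 difference, labelled crypt minus Lgr5Hi, of each of the 22180 genes against the mean log2 intensity of the 4 arrays; red genes were called higher (1435), green genes lower (1546) and grey genes were not called. Circled genes are described in the text, with Clca4a at 6.19 and Hspa1a at -5.61.

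The largest rises included enzymes and transporters of the enterocyte brush border. The 15 largest, leaving out gene models without a name, small RNAs and genes linked to sex chromosomes, were Clca4a, Slc34a2, Lct, Slc5a12, Gda, Enpp3, Slc15a1, Treh, Clec2h, Ceacam20, Tmprss15, Cubn, Ace, Bst1 and Cd36, with differences from 6.19 down to 5.22. Of these, 5 are on the list of brush border hydrolases, 2 on that of nutrient transporters, 1 each on those of lipid absorption and the villus tip, and 6 on none. Of 20 measured brush border hydrolases, the membrane enzymes that finish digestion, 18 rose and 0 fell, and the list's median difference was 4.80. Leaving out any 1 of the 4 arrays kept at least 14 of the 20 called. Their mean level was 10.43 and 10.53 on the crypt-labelled arrays, 5.29 and 7.07 in Lgr5Hi, 7.20 and 7.97 in Lgr5Lo and 7.59 in whole tissue, so Lgr5Hi replicate 1 was lowest and replicate 2 lay close to Lgr5Lo and whole tissue.

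Among the carbohydrate-splitting enzymes, lactase (Lct) stood at 11.34 and 11.55 on the crypt-labelled arrays and at 3.86 and 7.12 in Lgr5Hi. The groups did not overlap, as was so for 12686 of all 22180 genes, and the difference was 5.96 ± 0.64 (adjusted p = 1.47e-06). Trehalase (Treh) stood at 9.85 and 10.06 against 3.61 and 5.19, a difference of 5.56 ± 0.44 (adjusted p = 2.25e-08). Sis stood at 11.73 and 11.62 against 4.60 and 8.84, and its difference of 4.96 ± 0.82 (adjusted p = 0.000195) ranged from 2.83 without Lgr5Hi replicate 1 to 7.08 without Lgr5Hi replicate 2. In each of the 3 enzymes Lgr5Hi replicate 2 was the higher of the sorted pair. The SD of that pair was 3.00 for Sis and 2.30 for Lct, whereas Sis had an SD of 0.21 in pyloric Lgr5Hi. The printed SE pools such groups, so it does not give the spread of the compared arrays alone. In limma with only the 7 small intestine arrays the adjusted p of Sis was 0.00511.

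Tmprss15, enteropeptidase, which activates pancreatic trypsinogen, had the smallest adjusted p of its list. It stood at 8.08 and 8.31 on the crypt-labelled arrays, 2.58 and 3.12 in Lgr5Hi, 2.45 and 3.27 in Lgr5Lo and 4.13 in whole tissue. The difference from Lgr5Hi was 5.34 ± 0.31 (adjusted p = 6.31e-10), and all 5 other arrays were low. Enpp7, the alkaline sphingomyelinase, stood at 9.92 and 10.69 against 4.47 and 5.82 (5.16 ± 0.46, adjusted p = 9.47e-08). Alpi differed by 4.66 ± 0.93 (adjusted p = 0.00131), and lost its call without Lgr5Hi replicate 1 (adjusted p = 0.0773; range over its 14 alternatives 4.01e-05 to 0.0773). Mgam (2.39, adjusted p = 0.0996) and Mep1a (2.27, adjusted p = 0.129) were the members not called.

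Promoters of 4 of these absorptive genes are shown because the Cdx and Hnf4 families of transcription factors are known regulators of enterocyte genes. Each is the 250 bases before the RefSeq gene start in build GRCm38.p6, written 5′ to 3′ on the strand of the gene. They lie at chr3:72967864-72968113 (minus strand) for Sis, chr1:87101607-87101856 (minus) for Alpi, chr9:44672983-44673232 (plus) for Treh and chr3:122894822-122895071 (plus) for Fabp2, an intestinal fatty acid-binding protein. Capitals mark matches on either strand to TTTATNG (Cdx family) or CAAAGTNCA (Hnf4 family).
Sis: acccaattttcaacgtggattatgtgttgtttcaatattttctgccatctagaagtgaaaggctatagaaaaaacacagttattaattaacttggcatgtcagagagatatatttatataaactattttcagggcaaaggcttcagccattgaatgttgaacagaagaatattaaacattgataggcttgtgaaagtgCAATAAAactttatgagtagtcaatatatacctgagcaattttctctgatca
Alpi: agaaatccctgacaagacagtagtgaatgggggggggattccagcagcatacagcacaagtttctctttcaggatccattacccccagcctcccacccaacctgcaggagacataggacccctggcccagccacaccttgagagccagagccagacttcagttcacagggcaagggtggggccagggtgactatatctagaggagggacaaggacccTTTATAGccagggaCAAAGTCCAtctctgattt
Treh: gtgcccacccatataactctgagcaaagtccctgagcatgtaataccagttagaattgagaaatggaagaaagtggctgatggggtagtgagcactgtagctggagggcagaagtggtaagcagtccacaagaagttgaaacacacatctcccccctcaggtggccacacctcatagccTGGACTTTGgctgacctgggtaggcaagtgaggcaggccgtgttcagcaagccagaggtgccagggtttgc
Fabp2: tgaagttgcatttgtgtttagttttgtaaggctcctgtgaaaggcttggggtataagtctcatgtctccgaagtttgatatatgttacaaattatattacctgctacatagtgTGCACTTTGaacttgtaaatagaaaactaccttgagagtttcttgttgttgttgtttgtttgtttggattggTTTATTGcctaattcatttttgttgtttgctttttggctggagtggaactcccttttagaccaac
The Cdx match of Sis began 52 bases before the gene start on the opposite strand, and that of Fabp2 65 bases before it. The Cdx match of Alpi, at 33 bases, overlaps the usual place of a TATA box, whose letters are alike. Hnf4 matches lay at 19 bases in Alpi, 71 in Treh and 137 in Fabp2. TTTATNG was found in 4 of 20 promoters of brush border hydrolases (20%), 7 of 20 of lipid absorption genes (35%) and 3 of 27 of nutrient transporters (11.1%), against 9.81% of all 32851 RefSeq promoters. CAAAGTNCA was found in 2 of 20 (10%), 2 of 20 (10%) and 2 of 27 (7.41%), against 1.19% of all. Promoters were matched by symbol for 17 of the 20, 18 of the 23 and 21 of the 24 measured members, and some genes have more than 1 promoter. The matches are descriptions of letters, not of binding. Fabp2 itself was at 12.42 and 12.40 on the crypt-labelled arrays and 11.38 and 11.42 in Lgr5Hi, and its difference of 1.01 ± 0.80 was not called (adjusted p = 0.543).

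Nutrient transporters were higher as well. Of 24 measured, 18 rose and 0 fell, with a median difference of 3.37. Slc34a2, a phosphate transporter, stood at 8.51 and 9.36 on the crypt-labelled arrays, 2.67 and 3.12 in Lgr5Hi, 3.07 and 3.23 in Lgr5Lo and 3.45 in whole tissue (difference from Lgr5Hi 6.04 ± 0.45, adjusted p = 1.07e-08). It was low on every other small intestine array. Slc15a1, the di- and tripeptide transporter, stood at 10.41 and 10.71 against 3.37 and 6.48 (5.63 ± 0.90, adjusted p = 0.000147). The glucose and fructose carrier Slc2a2 rose by 5.05 ± 0.50, the neutral amino acid transporter Slc6a19 by 4.26 ± 0.35 and the vitamin C transporter Slc23a1 by 3.33 ± 0.29. Those not called included the basolateral iron exporter Slc40a1 (2.05, adjusted p = 0.168), the calcium channel Trpv6 (0.38, adjusted p = 0.600) and the ferric reductase Cybrd1 (0.03, adjusted p = 0.993). Slc5a12, a lactate and monocarboxylate carrier outside the list, stood at 9.18 and 8.82 against 2.53 and 3.70 (5.89 ± 0.37, adjusted p = 2.36e-09), and Cubn, the receptor for vitamin B12 bound to intrinsic factor, rose by 5.33 ± 0.45.

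Lipid absorption followed the same direction, with 17 of 23 measured genes higher, 0 lower and a median of 2.81. Npc1l1, the cholesterol uptake transporter, stood at 11.63 and 11.75 against 6.13 and 8.33 (4.46 ± 0.51, adjusted p = 3.2e-06). The sterol exporters Abcg5 and Abcg8 rose by 3.03 ± 0.34 and 2.63 ± 0.31, the fatty acid transporter Slc27a4 by 4.17 ± 0.47 and the transcription factor Creb3l3 by 3.10 ± 0.33. Cd36, a fatty acid receptor, stood at 9.05 and 9.04 against 2.81 and 4.85 (5.22 ± 1.11, adjusted p = 0.00224) and lost its call without Lgr5Hi replicate 1. The abundant fatty acid-binding protein Fabp1 (1.47, adjusted p = 0.556) and apolipoprotein Apoa1 (2.98, adjusted p = 0.0856) were not called. In the list of fatty acid oxidation and ketone body genes 3 of 17 rose and 0 fell (median 0.61), with 1 without crypt replicate 2 or Lgr5Hi replicate 1, among them the peroxisomal enzyme Ehhadh at 2.45 ± 0.39.

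Drug and retinoid metabolism held 21 of 26 higher genes and 0 lower, with a median of 2.61. Cyp3a11, a major drug-oxidising cytochrome, stood at 9.92 and 9.95 against 4.09 and 5.84 (4.97 ± 0.47, adjusted p = 2.13e-07). Cyp2c66 stood at 7.17 and 7.38 against 2.31 and 3.66 (4.29 ± 0.38, adjusted p = 8.27e-08). The crypt-labelled arrays were above all 5 others for both. Cyp3a13 rose by 5.01 ± 0.61, Cyp4f14 by 4.97 ± 0.63 and Cyp27a1, a sterol hydroxylase, by 2.57 ± 0.35. Bile acid genes of the distal small intestine gave 1 call of 6, the export subunit Slc51a (3.55 ± 0.82, adjusted p = 0.00453), which was lost without crypt replicate 2 or Lgr5Hi replicate 1. The bile acid importer Slc10a2 stood at 3.51 and 3.35 against 3.16 and 3.18 and the ileal hormone Fgf15 at 3.99 and 3.79 against 4.16 and 3.85, so both were near the array medians in every group.

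Genes known from the upper villus were higher, and fewer genes of the lower villus were. Of 12 measured villus tip genes 9 rose and 0 fell (median 3.21). Ada, adenosine deaminase, averaged 10.89 ± 0.16 (SD, n = 2) on the crypt-labelled arrays and stood at 6.93 and 6.79 in Lgr5Hi, 5.91 and 6.24 in Lgr5Lo and 6.39 in whole tissue (4.03 ± 0.39, adjusted p = 3.67e-07). Clca4a, a secreted chloride channel regulator, stood at 10.37 and 10.13, against 3.74 and 4.37 in Lgr5Hi, 2.78 and 3.33 in Lgr5Lo and 3.25 in whole tissue (6.19 ± 0.85, adjusted p = 2.61e-05). For both genes Lgr5Lo and whole tissue were no higher than Lgr5Hi. Nt5e, which makes adenosine from AMP at the cell surface, rose by 3.83 ± 0.51, and the purine nucleoside transporter Slc28a2 by 4.38 ± 0.45. Of 14 lower villus and defence genes, 3 rose and 1 fell (median 1.11). Reg3a, an antimicrobial lectin, stood at 9.86 and 9.68 against 3.81 and 7.07 (4.32 ± 0.57, adjusted p = 1.67e-05). Its relative Reg3g, at 11.06 and 11.63 against 7.72 and 9.29, was not called (2.84 ± 1.10, adjusted p = 0.101). The difference between upper and lower villus genes was not tested.

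Of 20 transcription factors of absorptive cells 4 rose and 1 fell, with a median of 0.43. Over all genes 6.47% were called higher and 6.97% lower. Maf stood at 9.82 and 10.13 against 4.48 and 6.35 (4.56 ± 0.68, adjusted p = 7.1e-05). Klf4 stood at 8.38 and 8.71 against 5.64 and 5.59 (2.93 ± 0.39, adjusted p = 1.92e-05) and the nuclear receptor Nr1i3 at 8.77 and 8.83 against 5.60 and 6.29 (2.85 ± 0.33, adjusted p = 3.44e-06). Hnf4g rose by 2.23 ± 0.66 (adjusted p = 0.0258) and lost its call without crypt replicate 1, crypt replicate 2 or Lgr5Hi replicate 1. Hes1, the Notch effector that holds back secretory fate, fell by 2.08 ± 0.34. As the 1 lower gene of this list it makes a share near that of all genes.

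**Figure D3:**
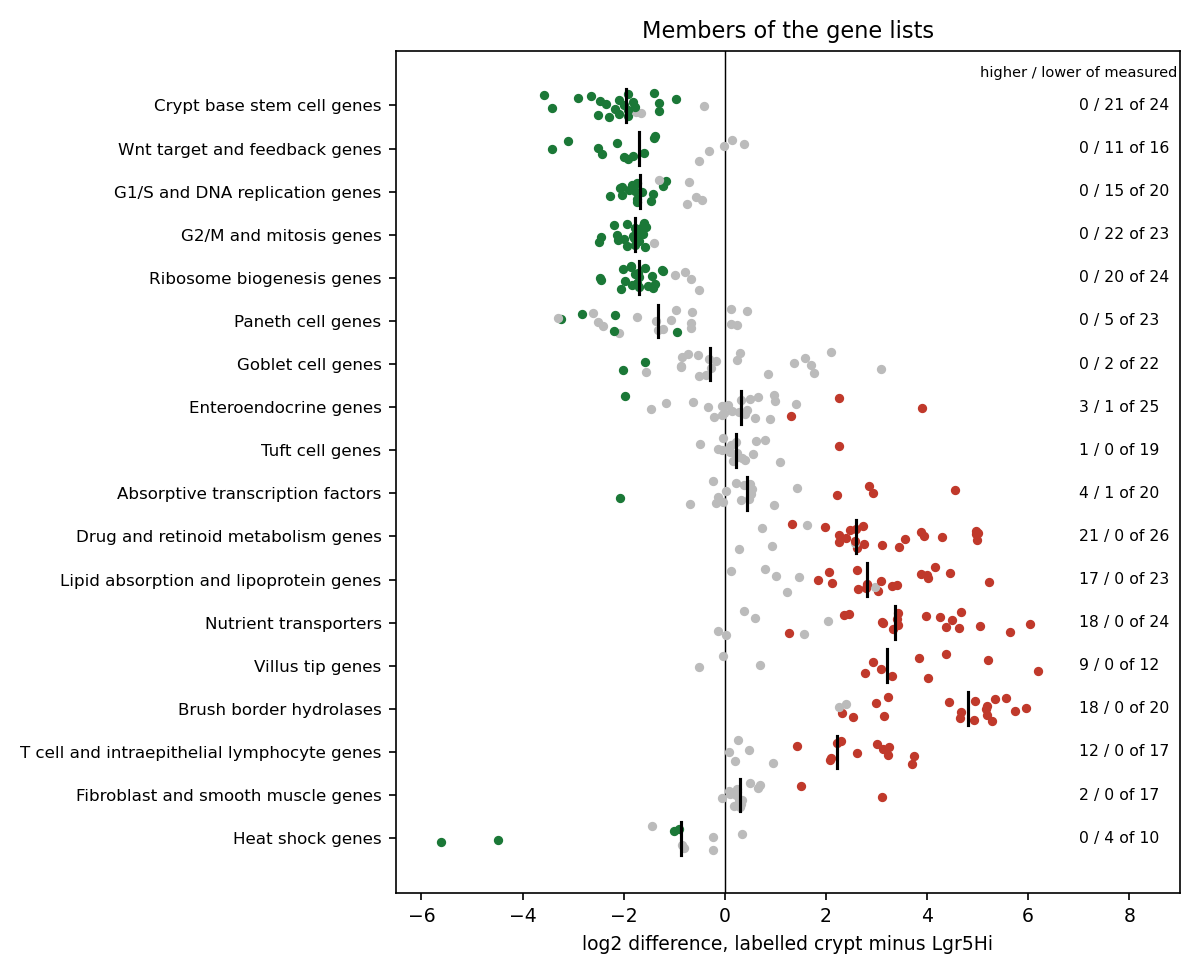
Log2 difference, labelled crypt minus Lgr5Hi, of each measured member of 18 gene lists; red and green points were called higher and lower, grey points were not called, vertical bars are list medians, and the numbers give members higher and lower of those measured. Brush border hydrolases have a median of 4.80 and crypt base stem cell genes one of -1.96.

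Crypt base stem cell genes were lower on the crypt-labelled arrays. Of 24 measured, 21 fell and 0 rose, with a median of -1.96; without crypt replicate 2 it was 12 genes and without Lgr5Hi replicate 2 it was 13. Lgr5 differed by -3.41 ± 0.43 (adjusted p = 9.22e-06), 10.7-fold lower. As the gate marker, its high level in Lgr5Hi is set by the sort. Smoc2, a secreted calcium-binding matrix protein, stood at 6.24 and 5.10 against 9.29 and 9.19 (-3.57 ± 0.56, adjusted p = 0.000123). The chloride cotransporter Slc12a2 stood at 8.47 and 7.55 against 10.78 and 11.03 (-2.89 ± 0.44, adjusted p = 7.76e-05). In both genes crypt replicate 2 was the lower array of its pair. The RNA-binding protein Msi1 fell by 2.00 ± 0.26, the BMP co-receptor Rgmb by 2.46 ± 0.33 and the urea transporter Slc14a1 by 2.64 ± 0.36. Olfm4 differed by -2.35 ± 0.63 (adjusted p = 0.0134), and was not called without crypt replicate 2 (adjusted p = 0.151), Lgr5Hi replicate 1 (0.0753) or Lgr5Hi replicate 2 (0.0790), with a range from 0.000185 to 0.151 over its 14 alternatives. Not called were Esrrg (-1.75), Clca3b (-1.65) and Mex3a (-0.42).

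Wnt target and feedback genes were lower too, with 11 of 16 lower and 0 higher (median -1.70). The count was 6 without crypt replicate 2 and 7 without Lgr5Hi replicate 2, and Lgr5, Ascl2 and Tnfrsf19 belong to both lists. Sox9, a transcription factor of the crypt base, stood at 5.35 and 4.68 against 7.99 and 8.23 (-3.09 ± 0.48, adjusted p = 0.000106). Myc, a growth regulator, stood at 5.69 and 5.68 against 8.10 and 8.29 (-2.51 ± 0.36, adjusted p = 5.31e-05). The groups were apart for both, as they were for 12686 of all 22180 genes. Ascl2, which drives the stem cell programme, fell by 1.91 ± 0.34, the feedback inhibitor Axin2 by 2.00 ± 0.43 and the ubiquitin ligase Rnf43 by 2.13 ± 0.46. Genes that did not pass included Nkd1 (-0.01), Notum (0.39), Sp5 (0.15) and Lef1 (-0.31). Of 7 measured proposed reserve stem cell genes 2 fell, Lrig1 (-1.78 ± 0.42) and Hopx (-1.26 ± 0.41, adjusted p = 0.045); Hopx lost its call without any 1 of the 4 arrays.

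The largest falls were partly genes outside these lists. The 15 largest were Hspa1a, Gkn3, Cyp2e1, Hspa1b, Tmed6, Agr3, Mia, Sycn, Wfdc15b, Prelp, Scgb2b7, Smoc2, Lgr5, Sfrp5 and Rgcc, from -5.61 to -3.28. Cyp2e1, a cytochrome, stood at 4.06 and 3.63 on the crypt-labelled arrays, 8.53 and 8.24 in Lgr5Hi, 5.05 and 5.91 in Lgr5Lo and 5.64 in whole tissue (-4.54 ± 0.30, adjusted p = 4.87e-09), so both Lgr5Hi arrays were above the other 5. Gkn3, a gastrokine also placed in the stomach list, stood at 5.86 and 4.73 against 10.23 and 9.52 (-4.58 ± 0.72, adjusted p = 0.000121). The other stomach genes were low, with acid pump subunits Atp4a and Atp4b at 3.75 to 5.01 on the 4 arrays. The secreted Wnt antagonist Sfrp5 stood at 3.44 and 3.51 against 6.89 and 6.78 (-3.36 ± 0.49, adjusted p = 5.57e-05), and was at 3.86 and 5.30 in Lgr5Lo. Sycn (-3.83 ± 1.22, adjusted p = 0.0387) was not called without any 1 of the 4 arrays. A930009A15Rik, which the naming rule left out and which was looked up after its values were seen, stood at 3.49 and 3.39 against 8.94 and 8.14, and at 5.99 and 5.61 in Lgr5Lo (-5.10 ± 0.35, adjusted p = 4.87e-09). The RefSeq annotation places it within the span of Lgr5, where overlapping transcripts can share signal.

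Proliferation genes were lower on the crypt-labelled arrays. Of 23 measured G2/M and mitosis genes 22 fell and 0 rose (median -1.77), with 12 left without crypt replicate 2. Their mean level was 6.48 and 5.94 on these arrays, 8.02 and 8.07 in Lgr5Hi, 7.52 and 7.86 in Lgr5Lo and 7.51 in whole tissue. The mitotic kinase Cdk1 stood at 7.31 and 6.48 against 9.54 and 9.13 (-2.44 ± 0.36, adjusted p = 7.1e-05), and the topoisomerase Top2a at 7.55 and 6.58 against 9.21 and 9.31 (-2.19 ± 0.39, adjusted p = 0.000376). Of 20 G1/S and DNA replication genes 15 fell (median -1.68), with 6 without crypt replicate 2 and 7 without Lgr5Hi replicate 1; the helicase subunit Mcm6 fell by 2.08 ± 0.33 and the ribonucleotide reductase subunit Rrm1 by 1.83 ± 0.28. Among 24 ribosome biogenesis genes 20 fell (median -1.69). The small nucleolar RNP protein Nop56 stood at 6.50 and 5.80 against 8.78 and 8.46 (-2.47 ± 0.30, adjusted p = 6.33e-06), and the pseudouridine synthase Dkc1 fell by 2.05 ± 0.29.

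**Figure D4:**
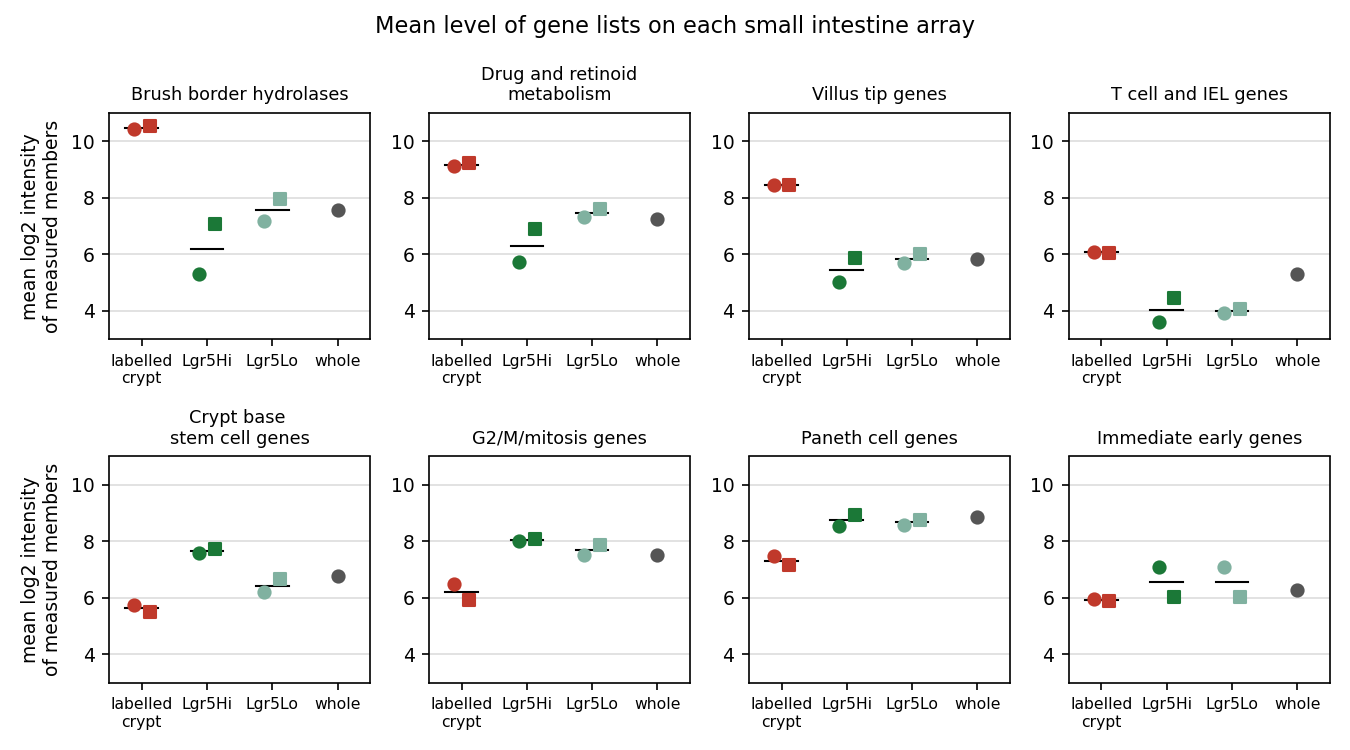
Mean log2 intensity of the measured members of 8 gene lists on each of the 7 small intestine arrays; circles are replicate 1, squares replicate 2 and lines group means. The crypt-labelled arrays are highest for brush border hydrolases (10.43 and 10.53) and lowest for crypt base stem cell genes (5.75 and 5.51), while immediate early genes are high on the replicate 1 arrays of Lgr5Hi and Lgr5Lo (7.10 each).

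The count of Paneth cell genes depended on which arrays gave the residual spread. Of 23 Paneth cell genes 5 fell and 0 rose (median -1.31); 16 fell when the residual spread came only from the 7 small intestine arrays or the 4 compared. It was 2 without crypt replicate 2 and 3 without either Lgr5Hi replicate. Mmp7, the protease that activates Paneth cell defensins, stood at 8.26 and 7.27 against 10.94 and 11.06 (-3.23 ± 0.56, adjusted p = 0.000297). Lysozyme (Lyz1) stood at 11.90 and 11.40 against 12.56 and 12.87 and was not called (adjusted p = 0.757). Paneth cell transcripts were thus abundant on the Lgr5Hi arrays too, with 4 defensin genes (Defa21, Defa22, Defa24, Defa26) between 11.72 and 13.15 there; near-identical defensins can share signal.

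Goblet cell genes gave 0 higher and 2 lower of 22 (median -0.29), by limma, with counts of up to 5 higher and 7 lower when only the 4 compared arrays were fitted. The mucin protein processor Clca1 stood at 10.61 and 10.55 against 5.94 and 9.03 (3.10 ± 1.17, adjusted p = 0.0902). The main mucin Muc2 differed by 1.58 (adjusted p = 0.639). Of 25 enteroendocrine genes 3 rose and 1 fell: Nts, neurotensin, stood at 7.82 and 8.00 against 2.88 and 5.14 (3.90 ± 0.99, adjusted p = 0.00957), Sct, secretin, rose by 2.27 ± 0.64 and Ddc by 1.32 ± 0.41, while the tachykinin gene Tac1 fell by 1.97 ± 0.55. Each of these 4 lost its call without at least 2 of the 4 arrays. Tuft cell genes gave 1 call of 19, the leukotriene synthase Ltc4s (2.26 ± 0.47, adjusted p = 0.00203), and M cell genes 1 of 9, the chemokine Ccl9, which also counts as a goblet cell gene (-2.01 ± 0.56, adjusted p = 0.0182). Over all genes 6.47% were called higher and 6.97% lower. The few calls of the goblet, tuft and M cell lists are near those shares and are not read as results about these cells.

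Among 20 Notch and BMP signalling genes 4 rose and 4 fell (median 0.17), with 1 to 2 rises and 2 to 4 falls when 1 array was left out. Smad7, an inhibitor of TGF-β and BMP signals, stood at 7.06 and 7.19 against 5.24 and 5.27 (1.87 ± 0.32, adjusted p = 0.00029). The receptor Notch1 stood at 4.71 and 4.50 against 6.36 and 6.38 (-1.76 ± 0.31, adjusted p = 0.000334). The groups were apart for both, by more than the difference within pairs. They did not overlap for 12686 of all 22180 genes. The BMP target Id3 rose by 0.98 ± 0.28 and the BMP pseudoreceptor Bambi fell by 1.39 ± 0.36; both lost their calls without 3 or more of the arrays.

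Genes of intraepithelial lymphocytes were higher on the crypt-labelled arrays, and lists of other non-epithelial cells gave 0 to 3 calls, all higher. Over all genes 6.47% were called higher. Of 17 measured T cell and intraepithelial lymphocyte genes 12 rose and 0 fell (median 2.22), with 11 or 12 called when any 1 array was left out. The T cell receptor chain Cd3g stood at 6.91 and 6.97 against 2.22 and 4.16 in Lgr5Hi, 2.67 and 3.83 in Lgr5Lo and 4.77 in whole tissue (3.75 ± 0.44, adjusted p = 4.16e-06). The cytotoxic protease Gzmb stood at 7.52 and 7.44 against 3.65 and 4.79 (9.57-fold higher, adjusted p = 2.47e-06), and Cd8a rose by 2.62 ± 0.37. Fcer1g and Tyrobp, signalling adaptors of myeloid and natural killer cells, rose by 2.64 ± 0.34 and 2.83 ± 0.61 among 3 of 17 myeloid genes. Of 7 genes of all white blood cells 3 rose and 0 fell (median 1.13). None of 11 B and plasma cell genes, 11 endothelial genes and 7 neuron and glia genes was called by limma. Among 17 fibroblast and smooth muscle genes 2 rose, Dcn (6.29 and 6.47 against 3.24 and 3.30, 3.11 ± 0.58, adjusted p = 0.000745) and Sparc (1.50 ± 0.38), while Col1a1 stood at 4.88 and 4.33 against 4.33 and 4.23. The mean level of the T cell list was 6.09 and 6.06 on the crypt-labelled arrays and 3.60 and 4.45 in Lgr5Hi, the same direction as the enterocyte lists. It was 3.94 and 4.09 in Lgr5Lo and 5.30 in whole tissue. Brush border hydrolases averaged 7.20 and 7.97 in Lgr5Lo and 7.59 in whole tissue, so the lists did not move together over all 7 arrays. The part of the T cell list in the other differences was not tested.

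Heat shock and immediate early genes are known to respond to tissue handling. Hspa1a, an inducible heat shock chaperone, stood at 3.38 and 3.27 on the crypt-labelled arrays, 9.80 and 8.07 in Lgr5Hi, 10.13 and 7.99 in Lgr5Lo and 8.00 in whole tissue (-5.61 ± 0.81, adjusted p = 4.69e-05). Its neighbour Hspa1b, a near-identical copy that can share signal, differed by -4.49 ± 0.77. Both were low on the crypt-labelled arrays alone among the 7. Of 10 heat shock genes 4 fell and 0 rose (median -0.87), with 2 left without crypt replicate 2, Lgr5Hi replicate 1 or Lgr5Hi replicate 2. Of 20 immediate early genes 1 fell, a share near the 6.97% of all genes called lower. It was Egr1, at 5.14 and 3.98 against 8.60 and 6.35 (-2.91 ± 0.81, adjusted p = 0.0176). That call was lost without crypt replicate 2 or Lgr5Hi replicate 1. The mean level of the immediate early list was 7.10 and 6.02 on the Lgr5Hi arrays and 5.95 and 5.88 on the crypt-labelled arrays. The part of these genes in the other differences was not tested. Among 7 MHC class II genes 2 fell, H2-Aa (-2.56 ± 0.72) and H2-DMa (-1.97 ± 0.60), and neither was called without Lgr5Hi replicate 2.

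Values against the other small intestine populations are set beside these; all 3 comparisons share the crypt-labelled arrays. Against Lgr5Lo, 769 genes were higher (3.47%) and 596 lower (2.69%), a total of 1365 that fell to 317 without crypt replicate 2, 424 without Lgr5Lo replicate 1 and 843 without crypt replicate 1. Without crypt replicate 2 the lower calls went from 596 to 53 and the higher ones from 769 to 264, so the higher share of the calls was 83.3% in place of 56.3%. Whole small intestine is 1 array, so its own spread was not measured, and every SE, p and count against it assumes that it varies like the other groups of the line. Against it, 671 were higher (3.03%) and 230 lower (1.04%), 901 in all, with 257 without crypt replicate 2 and 568 without crypt replicate 1. In that comparison 74.5% of the calls were higher, 86.5% with each array centred on its median, 60.8% after quantile normalization and 88.7% without crypt replicate 2, and centring moved the median of all genes from -0.06 to 0.11. Brush border hydrolases gave 11 of 20 higher against Lgr5Lo and 10 of 20 against whole tissue, and mitosis genes 17 and 8 of 23 lower. Crypt base stem cell genes gave 2 and 5 of 24 lower, and Lgr5 itself differed by -0.93 ± 0.43 from Lgr5Lo (adjusted p = 0.256) and by -2.17 ± 0.53 from whole tissue (adjusted p = 0.0193). T cell genes gave 12 and 3 of 17 higher. Tmprss15 was 5.33 above Lgr5Lo and 4.07 above whole tissue (adjusted p = 6.55e-10 and 3.32e-06), and Ada 4.81 and 4.50 (adjusted p = 7.9e-08 and 8.25e-06). Enteroendocrine genes gave 0 higher and 3 lower of 25 against Lgr5Lo, where Tac1 stood at 9.44 and 7.88 (-3.77, adjusted p = 0.000171).

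The pylorus of the same line allowed a comparison of whole tissue (2 arrays) with Lgr5Hi cells (4 arrays) that shares no array with the small intestine. The samples without a gate are labelled crypt in small intestine and whole in pylorus. Organ and kind of ungated sample thus differ together in the test between organs and cannot be told apart. There 959 genes were higher in whole tissue (4.32%) and 367 lower (1.65%), in total 1326, with 507 and 304 without whole pylorus replicates 1 and 2. Of its calls 72.3% were higher, with 61.5% after quantile normalization, 61.9% with a replicate block, 80% with each array centred on its median and 82.8% without whole pylorus replicate 1. The difference between the organs' differences was called for 734 genes in the direction of small intestine (3.31%) and 1049 in the other (4.73%), in total 1783, with 860 without crypt replicate 2, 874 without Lgr5Hi replicate 1, and 1040 and 1015 without whole pylorus replicates 1 and 2. Lgr5, the gate marker, was lower than in Lgr5Hi in both organs, a direction set by the sort. In pylorus it stood at 5.98 and 6.07 in whole tissue and 8.08 to 9.12 in Lgr5Hi (-2.51 ± 0.37, adjusted p = 0.000163). The test of the difference between organs did not pass for it (-0.90 ± 0.57, adjusted p = 0.414). Hspa1a stood at 3.77 and 5.75 against 8.53 to 9.10 in pylorus (-3.98 ± 0.70, adjusted p = 0.000941), and its organs differed by -1.63 ± 1.07 (adjusted p = 0.435).

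Mitosis genes that were lower on the crypt-labelled arrays were in part higher in whole pylorus. In pylorus 8 of 23 were higher in whole tissue and 0 lower (median 0.90), and 22 of 23 passed the test of the difference between organs. That test used the crypt-labelled arrays, where the list averaged 6.48 and 5.94. The 1 whole small intestine array averaged 7.51 and the Lgr5Hi arrays of small intestine 8.02 and 8.07. Cenpe, a kinetochore motor, stood at 7.12 and 7.08 in whole pylorus against 5.45 to 5.65 in pyloric Lgr5Hi (1.58 ± 0.28, adjusted p = 0.00113), and at 6.10 and 5.66 on the crypt-labelled arrays against 7.72 and 7.66 in small intestinal Lgr5Hi (-1.81 ± 0.33, adjusted p = 0.000483). The mitotic activator Cdc20 differed by 1.05 ± 0.25 in pylorus and -1.99 ± 0.29 in small intestine. Of 20 brush border hydrolases 1 was higher and 1 lower in pylorus, and 16 differed between organs. Alpi was the higher one, at 7.68 and 8.64 in whole pylorus against 4.21 to 5.82 (3.16 ± 0.80, adjusted p = 0.0198). T cell genes gave 0 calls of 17 in pylorus, and 11 differed between organs. They averaged 3.63 to 3.77 in pyloric Lgr5Hi and 3.67 and 3.62 in whole pylorus, under the array medians of 3.82 to 4.25. Brush border hydrolases averaged 4.41 to 4.70 and 4.22 and 4.37, near those medians. For genes that low in pylorus a difference there could hardly be seen, and the test between organs largely repeats the small intestine difference. Crypt base stem cell genes gave 7 of 24 lower in pylorus and 6 that differed between organs.

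**Figure D5:**
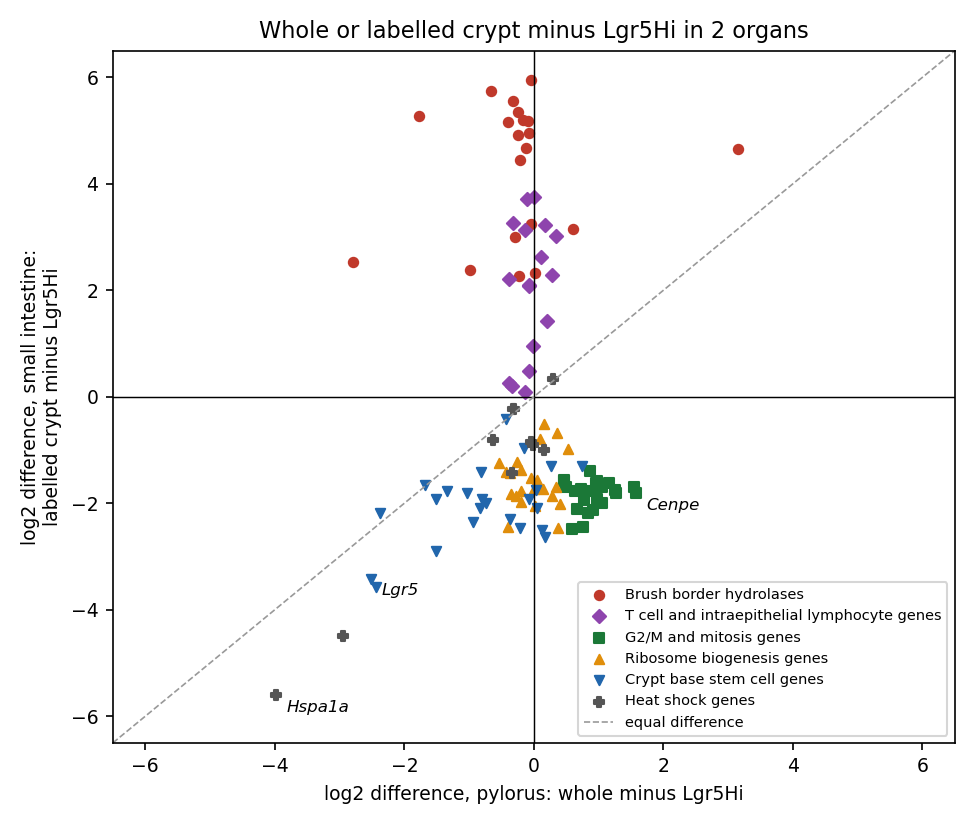
Log2 difference of whole minus Lgr5Hi in pylorus against labelled crypt minus Lgr5Hi in small intestine for the members of 6 gene lists; the dashed line marks equal differences. Most mitosis genes lie right of 0 and below 0 (Cenpe 1.58 and -1.81), and brush border hydrolases lie mostly near 0 in pylorus. Hspa1a and Lgr5 are lower in both organs, for Lgr5 a direction set by the sort.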

How the data were processed

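Per the submitters' processing notes, the deposited log2 values per probe set come from RMA, with oligo, limma 3.26.8, R 3.2.3 and Partek also named; their roles and order are not given in the sources used here. The 41345 probe sets held 23521 with 1 gene symbol, 1814 with several and 16010 with none; the first gave 22180 genes, each with its highest-mean probe set. Of the 23521 probe sets with 1 symbol, 23328 had a gene identifier that matched RefSeq and 193 did not. Groups were taken from sample titles. In limma 3.58.1 (R 4.3.3), 25 arrays in 10 groups were fitted with moderated variances (eBayes), and p-values were adjusted by Benjamini-Hochberg across the 22180 genes. The fit was also run on simulated data with the same spread per gene in every group. That run could not show what unequal spreads between groups do. Same-numbered arrays of crypt and Lgr5Hi (r = 0.03 over genes) and of crypt and Lgr5Lo (0.00) did not deviate together, those of Lgr5Hi and Lgr5Lo did in part (0.37); with 2 pairs each, the arrays were treated as unpaired. Crypt minus whole tissue was added after seeing the data.

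The members and the 35 gene lists, matched by symbol and sharing some members, were chosen with earlier results of these data known. Genes were named by a rule: Lgr5, Olfm4, Alpi and Sis, the 15 largest rises and falls with a call and no overlap between the compared arrays, and from every list at most 6 genes ranked by p. Further genes were named after values were seen: list members that were not called, members given in counts, and sex-linked genes. Red blood cell genes had 0 measured members. The other lists not described, colon (1 higher, 1 lower of 11), pancreatic acinar genes (0 of 7 called) and stomach genes (1 lower of 12), used the same fit.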

Additional observations from a re-analysis of the deposited data

Results flagged for a closer look

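The difference between crypt-labelled and Lgr5Hi arrays of small intestine departed from the difference between whole tissue and Lgr5Hi cells of pylorus in 1783 genes, by a test of the difference of differences in limma (adjusted p under 0.05). Organ and kind of ungated sample, labelled crypt or whole, differ together in this test and cannot be told apart. Among genes described above, each value is the small intestine difference minus the pylorus difference in log2 units. Treh (5.87, adjusted p = 1.47e-06) and Tmprss15 (5.59, adjusted p = 6.87e-08) departed upward among brush border enzymes. The lymphocyte genes Cd3g (3.75, adjusted p = 0.000274) and Gzmb (3.58, adjusted p = 5.45e-05) did so too. On the pyloric arrays Treh, Tmprss15 and Cd3g lay at 2.36 to 3.60 and Gzmb at 2.88 to 4.03, near or under the array medians. For these genes the test largely repeats the small intestine difference. Cenpe (-3.39, adjusted p = 2.66e-05) and Cdc20 (-3.04, adjusted p = 1.99e-05) departed downward and were called in opposite directions in the 2 organs. Myc (-2.87, adjusted p = 0.000545), the ribosome biogenesis genes Nop56 (-2.85, adjusted p = 8.54e-05) and Heatr1 (-2.02, adjusted p = 0.000554), and the stem cell genes Slc14a1 (-2.82, adjusted p = 0.000566) and Rgmb (-2.24, adjusted p = 0.00205) also departed downward, and none of these 5 was called in pylorus.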

How the results depend on the processing

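The count of genes called for crypt minus Lgr5Hi was 2981, 4674 when only the 4 compared arrays were fitted, and 1295 to 2184 when 1 array was left out. Crypt minus Lgr5Lo gave 1365, with 2198 from the 7 small intestine arrays, 2304 from the 4 compared, 2097 from all 42 arrays, and 317 to 1132 in leave-outs. Crypt minus whole gave 901, with 1488 from 7 arrays, 1482 from 42, and 257 to 568 in leave-outs. Pylorus gave 1326 and 304 to 1307 in leave-outs, and the difference of differences 1783 and 860 to 1797. With the replicate block the 5 counts were 3569, 1880, 810, 1692 and 2243, within 1.5 times of the main ones; the numbers were not taken as pairs. A leave-out can leave an arm with 1 array, which is assumed to vary like the other groups. Of 133 named genes called in crypt minus Lgr5Hi, 99 to 114 kept the call in leave-outs and 127 to 133 in the other settings that tested all of them, and 0 changed direction. Direction had little room to change, as 2980 of the 2981 called genes did not overlap between the compared arrays. For these, leaving out 1 array cannot reverse the difference. Settings that only alter the residual spread leave the difference as it is. Of 952 list counts 148 moved by over 1.5 times, and 6 of 476 list medians moved by more than the spread between replicates. No detection calls were used, so low values limit every fold against them.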
